A study of Mus musculus with 4 samples.

Results

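Serum response factor (SRF, gene Srf), its coactivator myocardin (Myocd) and 8 further genes were followed in heart ventricles of mice that lost Hnrnpu in muscle. The 8 were grouped as smooth muscle targets, though Tagln2, Cnn2 and Mustn1 are not confined to the smooth muscle contractile apparatus. The genes were taken by symbol, and all 10 of them were found once among the 36814 rows of the authors' deposited table, and all 10 were among its 24454 tested rows. RNA was sequenced from ventricles, with the atria cut away, at postnatal day 14. The 2 control mice are labelled wild type, and the 2 mutant mice came from a cross of a conditional Hnrnpu allele with a Ckmm-Cre transgene, on a mixed C57BL/6 and 129 S4 background, with 1 male and 1 female in each group. Whether the controls carried the conditional allele or the Cre is not given in the sources used here.

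The Ckmm promoter belongs to the muscle creatine kinase gene and drives Cre in striated muscle, so smooth muscle cells, fibroblasts, endothelial cells and macrophages of the ventricle are not its targets. SRF is a transcription factor of the MADS box family that binds CArG boxes, runs of A and T bases between CC and GG. It works through 2 sets of partners: ternary complex factors such as the Elk proteins, which link it to growth signals and immediate-early genes, and myocardin and the related proteins Mkl1 and Mkl2, which link it to muscle genes and to the state of the actin cytoskeleton. In the heart SRF is needed in cardiomyocytes, and contractile genes of cardiac muscle are among its targets. Its smooth muscle contractile targets mark the smooth muscle of coronary vessels. Some of these are also expressed in immature cardiomyocytes and in activated fibroblasts.

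The table of promoter sequences from RefSeq (build GRCm38.p6, 250 bases before to 50 bases after each start) had an entry for 7 of the 10 genes, and 2 of these promoters, those of Srf and Cnn2, held a CArG box. Tagln, Myocd and Myh11 had no entry. Across all 32851 promoters of that length, searched on both strands, 1.63% held a box. The 250 bases before each start of the pair that held one are shown because they carry the sequence SRF itself reads, with the boxes in capitals. Srf lies on the minus strand (chr17:46556163-46556412) and Cnn2 on the plus strand (chr10:79988350-79988599).
Srf: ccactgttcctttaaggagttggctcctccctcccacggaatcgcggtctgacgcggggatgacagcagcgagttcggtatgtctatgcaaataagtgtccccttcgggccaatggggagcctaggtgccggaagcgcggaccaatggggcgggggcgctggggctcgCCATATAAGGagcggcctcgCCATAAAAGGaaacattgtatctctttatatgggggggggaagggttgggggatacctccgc
Cnn2: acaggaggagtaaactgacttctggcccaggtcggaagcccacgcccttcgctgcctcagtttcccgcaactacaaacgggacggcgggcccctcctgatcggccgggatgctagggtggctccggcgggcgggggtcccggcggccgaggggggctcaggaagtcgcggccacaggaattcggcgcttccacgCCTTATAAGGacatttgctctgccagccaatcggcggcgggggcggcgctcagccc
The Srf promoter held a pair of boxes that begin 82 and 62 bases before the start, and the Cnn2 box begins 56 bases before it. The promoters of Tagln2, Cnn1, Smtn, Mylk and Mustn1 held none in this window, which says only that the letters are not there.

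Levels are given in RPKM (reads scaled by transcript length and by library size), with a single value that the authors made from the 2 mice of each group, so no spread between mice stands beside a level. Fold changes and p-values are those of the authors' deposited table, and a gene was called when its adjusted p-value was below 0.05. The 95% intervals were computed from the deposited log2 fold change and from the standard error that its p-value implies under a normal score. The targeted gene, Hnrnpu, was listed at 32.7 RPKM in control and 15.2 in mutant, and in the authors' deposited table it did not pass the test (adjusted p = 0.438).

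Tagln was the 1 gene of the 10 that passed the test, and it was higher in mutant. The other 9 did not pass, 5 of them listed above control and 4 below. Of all tested rows 3.51% were called in the authors' deposited table, 2.03% higher and 1.48% lower, so 1 call among 10 genes is too few to set the group apart from other rows. The median log2 fold change of the 10 genes was 0.30, beside 0.07 over all tested rows. With the unadjusted p-value, 3 of the 10 were below 0.05, Tagln and Cnn1 higher and Smtn lower, where 12.6% of all tested rows and 17.0% of those at a mean RPKM of 1 or more were.

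**Figure D1:**
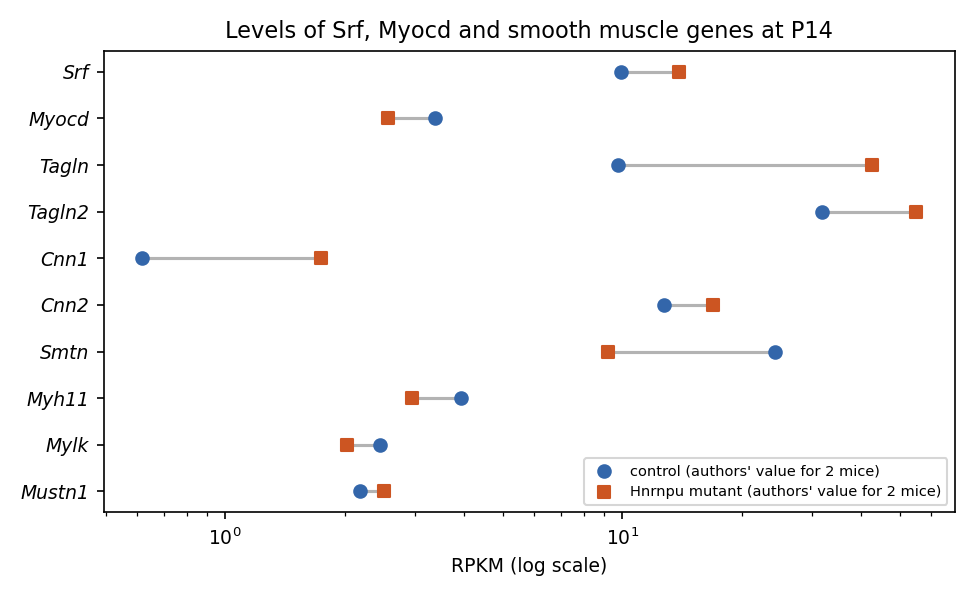
RPKM on a log axis for each of the 10 genes, with a circle for the authors' control value and a square for the authors' mutant value, each standing for 2 mice. Tagln moves from 9.76 to 42.6 RPKM, while the values of Srf, Myocd, Cnn2, Myh11, Mylk and Mustn1 lie close together.

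Srf (chromosome 17, minus strand, 46683788 to 46693111 in mm9 coordinates) had 9.90 RPKM in control and 13.9 in mutant. The authors' deposited table gives this as 1.41-fold (log2 0.49, 95% interval from -0.51 to 1.49) with p = 0.336 and adjusted p = 0.878. The transcript of the factor was thus not shown to differ, and a rise of up to 2.81-fold or a fall to 0.703 of control lies within the interval. The long intergenic RNA Gm16736 spans all 9324 bases of Srf on the other strand and was listed at 1.07 RPKM in control and 0.488 in mutant, and without strand its reads cannot be told apart from those of Srf.

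Myocd, the coactivator restricted to cardiac and smooth muscle (chromosome 11, minus strand, 64990063 to 65083491), was listed at 3.37 RPKM in control and 2.57 in mutant. In the authors' deposited table its fold was 0.763 (log2 -0.39, interval from -1.42 to 0.64), with adjusted p = 0.974. Its relatives Mkl1 and Mkl2, which move to the nucleus when free actin is depleted, were listed at 1.94 and 2.71 RPKM in control, against 1.85 and 2.64 in mutant. Myocd supplied 42.0% of the summed RPKM of these 3 coactivators in control and 36.4% in mutant. Among the MADS box factors, Srf supplied 16.9% of the summed RPKM in control and 31.1% in mutant, beside Mef2a, Mef2b, Mef2c and Mef2d. Mef2a, the most abundant of these in control, was listed at 26.0 RPKM in control and 12.6 in mutant, without a call (adjusted p = 0.468 in the authors' deposited table).

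Tagln, which codes for transgelin (SM22 alpha), an actin-binding protein of smooth muscle (chromosome 9, minus strand, 45737711 to 45744141), was listed at 9.76 RPKM in control and 42.6 in mutant. It rose 4.36-fold in the authors' deposited table (log2 2.12, interval from 1.10 to 3.14), with p = 4.26e-05 and adjusted p = 0.00299. Its log2 fold change lay at percentile 98.0 of the 11292 rows with a mean of at least 1 RPKM. The 3' end of Tagln overlaps that of Pcsk7 on the other strand over 65 bases. Pcsk7 was listed at 6.54 RPKM in control and 4.43 in mutant.

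Tagln2, the transgelin of non-muscle and many other cells (chromosome 1, plus strand, 174430178 to 174437511), had the highest level of the 10 genes in both groups, at 31.9 RPKM in control and 54.9 in mutant. For Tagln2 the authors' deposited table has 1.72-fold (log2 0.79, interval from -0.29 to 1.86) and adjusted p = 0.657. Tagln made up 23.2% of the summed RPKM of the 3 transgelins in control and 43.6% in mutant. Tagln3, the neuronal form, was listed at 0.392 RPKM in control and 0.107 in mutant. The intervals of Tagln and Tagln2 overlap, and the difference between their fold changes was not tested.

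Cnn1, the calponin of differentiated smooth muscle (chromosome 9, plus strand, 21903725 to 21914074), had the lowest level of the 10 genes in both groups, at 0.619 RPKM in control and 1.74 in mutant. It was the 1 gene of the 10 listed below 1 RPKM in a group. In the authors' deposited table it stood at 2.80-fold (log2 1.49, interval from 0.22 to 2.76) with p = 0.0215, which did not hold after adjustment (adjusted p = 0.249). With 1 RPKM added to both values its log2 fold change was 0.76. Cnn2, a calponin of many cell types (chromosome 10, plus strand, 79451329 to 79458807), was listed at 12.7 RPKM in control and 16.9 in mutant. Its log2 fold change in the authors' deposited table was 0.41 (interval from -0.59 to 1.40), with adjusted p = 0.948. Cnn3, the third calponin, had 59.5% of the family's summed RPKM in control and 56.9% in mutant, and Cnn1 had 1.88% and 4.02%. Calponins bind actin and hold back the myosin ATPase.

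Smtn, which codes for smoothelin, an actin-binding protein of contractile smooth muscle that also has other isoforms (chromosome 11, minus strand, 3417526 to 3440615), had the largest difference below control among the 10 genes. It was listed at 24.3 RPKM in control and 9.22 in mutant. The authors' deposited table gives 0.380 of control (log2 -1.40, interval from -2.49 to -0.31) with p = 0.0120 and adjusted p = 0.176, so it did not pass the test. By level Smtn was the second of the 10 genes in control and the fifth in mutant. Its log2 fold change lay at percentile 3.95 of rows with a mean of at least 1 RPKM. Smtnl2, a smoothelin-like gene, was listed at 5.52 RPKM in control and 7.16 in mutant, so that Smtn made up 81.5% of the smoothelin family's summed RPKM in control and 56.2% in mutant. The long intergenic RNAs Gm11946 and Gm11947 lie within Smtn on the other strand and were listed at 1.59 and 0 RPKM in control, against 1.64 and 0.122 in mutant. Values per isoform were not analysed here.

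Myh11, the myosin heavy chain of smooth muscle and a defining marker of it (chromosome 16, minus strand, 14194620 to 14291501), was listed at 3.93 RPKM in control and 2.95 in mutant. Its fold in the authors' deposited table was 0.751 (log2 -0.41, interval from -1.33 to 0.51), with adjusted p = 0.920. Mylk, the kinase that starts smooth muscle contraction by phosphorylating the regulatory light chain (chromosome 16, plus strand, 34745296 to 35002520), was listed at 2.46 RPKM in control and 2.03 in mutant. The log2 fold change of Mylk was -0.27 in the authors' deposited table (interval from -1.20 to 0.65, adjusted p = 1). A rise of Myh11 or Mylk as large as the 4.36-fold rise of Tagln lies outside their intervals, whose upper ends are 1.42-fold and 1.57-fold. Most of the light chain kinase transcripts came from the cardiac form Mylk3, at 86.5% of the family's summed RPKM in control and 81.2% in mutant. Among the myosin heavy chains outside the sarcomere Myh11 made up 13.6% of the summed RPKM in control and 12.1% in mutant, behind the non-muscle forms Myh9 and Myh10.

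Mustn1, which codes for a small nuclear protein of muscle and skeleton (chromosome 14, plus strand, 31692443 to 31694794), was listed at 2.19 RPKM in control and 2.51 in mutant. With 1.15-fold, a log2 fold change of 0.20 and an interval from -1.67 to 2.06 in the authors' deposited table (adjusted p = 1), it had the widest interval of the 10 genes. Changes of up to 4.18-fold in the upward direction lie within it. An implied error is least certain where the difference is near 0 and p is high. That holds for Mustn1 (p = 0.837 in the authors' deposited table), so the width of its interval is uncertain.

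**Figure D2:**
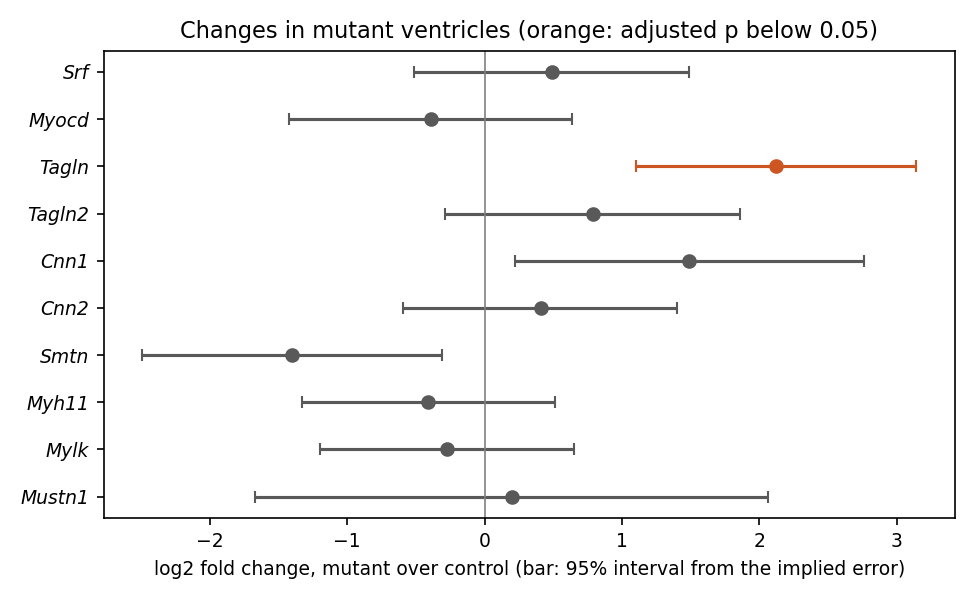
Log2 fold change of mutant over control for each of the 10 genes, with a bar for the 95% interval from the implied error, and orange for an adjusted p below 0.05. The intervals of 7 genes hold 0, those of Tagln and Cnn1 lie above it and that of Smtn lies below it, and Tagln alone passed the test after adjustment.

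Among the 10 genes, the order of levels in control was Tagln2, Smtn, Cnn2, Srf, Tagln, Myh11, Myocd, Mylk, Mustn1 and Cnn1. In mutant it was Tagln2, Tagln, Cnn2, Srf, Smtn, Myh11, Myocd, Mustn1, Mylk and Cnn1, so that Tagln and Smtn exchanged places between the second and the fifth. Neighbours such as Srf and Tagln in control (9.90 and 9.76 RPKM) cannot be ordered without a spread between mice. Among the genes of the contractile smooth muscle cell, Tagln and Cnn1 were listed above control and Myh11, Mylk and Smtn below it, and of these Tagln alone passed the test. Fewer cells of a type and less RNA per cell cannot be told apart in RNA from whole ventricles.

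The number of reads limited these values less than the spread the authors' test allowed for. RPKM values of small RNA genes step by the worth of 1 read, and if RPKM was scaled by mapped reads the steps correspond to 54.1 M reads for the control group and 132 M reads for the mutant group. With exonic lengths of a later annotation as a stand-in, Cnn1 then had about 92 reads in control, Mustn1 146 and Smtn 5760. Counting error alone would give the log2 fold changes of the 10 genes standard errors of 0.03 to 0.16. Those implied by the p-values of the 9 genes without a call ran from 0.47 to 0.95, the last being the uncertain value of Mustn1.

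**Figure D3:**
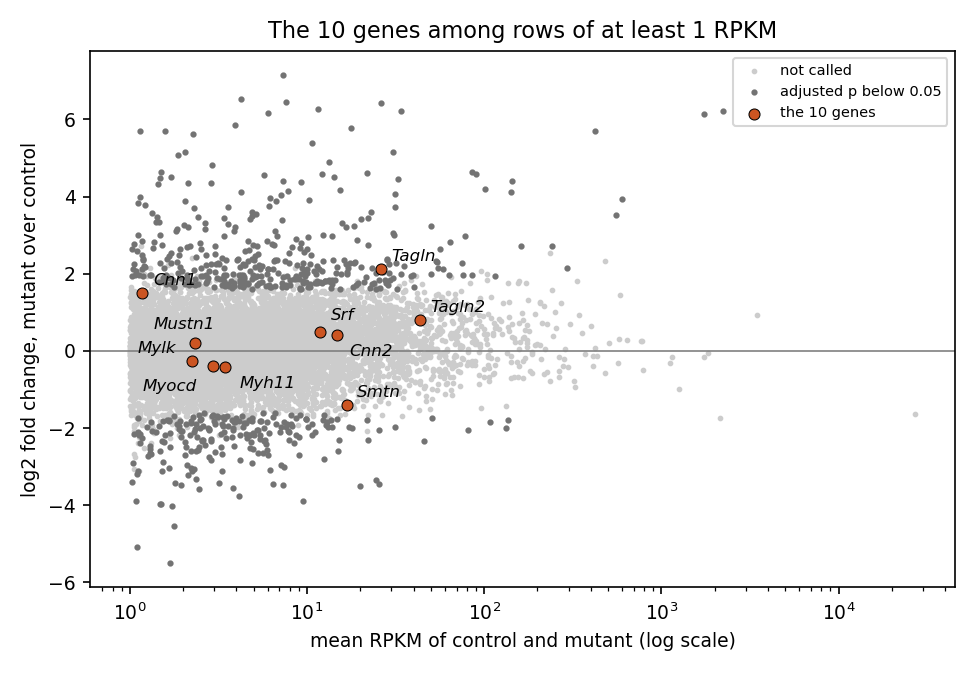
Log2 fold change of mutant over control against the mean RPKM on a log axis, for each row with a mean of at least 1 RPKM, light grey without and dark grey with a call, and the 10 genes in orange. Tagln sits among the called rows at a log2 fold change of 2.12, Smtn and Cnn1 at the edge of the uncalled rows, and the other 7 inside them.

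Cofactors and regulators of SRF were listed next, and of 22 tested genes 3 rose, 1 fell and 18 did not pass the test (18.2% called, beside 3.51% of all tested rows). Fhl1, a LIM domain protein of striated muscle, rose from 13.0 to 274 RPKM, or 21.1-fold by the authors' deposited table, at adjusted p = 4.59e-05. Abra (also called STARS), a sarcomeric protein that activates SRF through the myocardin relatives, rose from 4.10 to 20.7 RPKM, 5.05-fold with adjusted p = 0.00051 in the authors' deposited table. Csrp1, a LIM protein of smooth muscle, rose from 10.5 to 43.5 RPKM (4.14-fold and adjusted p = 0.00602 in the authors' deposited table). Hopx, a homeodomain protein that binds SRF and holds back its activity, fell from 78.7 to 23.5 RPKM, with adjusted p = 0.04998 in the authors' deposited table, just inside the threshold. A processed transcript, Gm15830, overlaps Hopx on the other strand and was listed at 15.3 RPKM in control and 7.09 in mutant. Fhl2, a LIM protein that binds SRF and the most abundant of the list, was listed at 309 RPKM in control and 217 in mutant, without a call. The Elk factors gave no call either: Elk1 was listed at 1.05 and 1.33 RPKM, Elk3 at 7.67 and 6.68 RPKM and Elk4 at 6.54 and 5.36 RPKM in control and mutant. The median log2 fold change of the list was 0.36.

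Other contractile and cytoskeletal genes of smooth muscle gave 1 call among 34 tested genes, 2.94%, a share near that of all tested rows. It was Pcp4l1, a small PCP4-like protein, which fell from 36.8 to 7.50 RPKM (log2 -2.30 and adjusted p = 0.00146 in the authors' deposited table). With a threshold of 0.1 on the adjusted p-value of the authors' deposited table, there were 4 called genes, beside 4.92% of all tested rows. Pdlim3 and Actn1 were higher, and Speg was lower beside Pcp4l1. By the unadjusted p-value of the authors' test, 5 of the 34 were higher and 3 lower at p under 0.05. Of all tested rows 12.6% were under 0.05, and 17.0% of those at a mean RPKM of 1 or more. The median log2 fold change was 0.42, with 24 genes above control and 10 below. Acta2, smooth muscle actin, was listed at 158 RPKM in control and 802 in mutant, a log2 fold change of 2.34 with an interval from 0.53 to 4.15, and did not pass the test (p = 0.0113 and adjusted p = 0.171 in the authors' deposited table). Des, which codes for desmin, had the largest fold above control in this list, with 69.5 RPKM in control and 404 in mutant (adjusted p = 0.132 in the authors' deposited table). Tpm1, tropomyosin 1 and the most abundant of the list, was listed at 579 RPKM in control and 705 in mutant. Genes of this list such as Tpm1 and Des are not confined to smooth muscle, and the smooth muscle marker Myh11 had 3.93 RPKM in control. Which cells their reads came from was not determined. Lmod1, a leiomodin of smooth muscle, was listed at 0.305 and 0.573 RPKM, and Actg2, smooth muscle gamma actin, at 0.527 and 1.43 RPKM in control and mutant. Actin genes are near-identical in their coding sequence, so reads of Acta1, Acta2, Actc1, Actg1, Actg2 and Actb may have been split among them, and how such reads were handled is not given in the sources used here.

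Immediate-early and cytoskeletal targets of SRF rose in 5 of 16 genes, fell in 1 and did not pass the test in 10 (37.5% called, beside 3.51% of all tested rows and 5.28% of those at a mean RPKM of 1 or more). Ctgf, a secreted matricellular protein, rose from 15.5 to 269 RPKM, or 17.3-fold with adjusted p = 1.08e-05 in the authors' deposited table. It overlaps the long intergenic RNA Gm15270 on the other strand over 1667 bases, listed at 1.62 RPKM in control and 29.3 in mutant. Cyr61, of the same family, rose from 9.17 to 47.1 RPKM and Fos, a subunit of the AP-1 factor, from 1.50 to 7.19 RPKM. Fosb rose from 0.111 to 0.664 RPKM, and Tuft1, tuftelin, from 0.382 to 3.69 RPKM. Actg1, cytoplasmic gamma actin, fell from 12.2 to 3.12 RPKM (adjusted p = 0.00791 in the authors' deposited table), while Actb, cytoplasmic beta actin, was listed at 181 RPKM in control and 160 in mutant. Egr1 and Junb, which respond to the same growth signals, were listed at 5.34 and 5.29 RPKM in control, against 8.52 and 13.9 in mutant, and neither was called. The median of the list was 0.72.

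SRF targets of cardiac and skeletal muscle rose in 5 of 21 genes and fell in none, with 16 that did not pass (23.8% called, beside the same 3.51% and 5.28%). Besides Nppa and Nppb, the natriuretic peptides, and Acta1, skeletal muscle actin, these were Ankrd1, a stress-responsive protein bound to titin, and Xirp1, an actin-binding protein of the intercalated disc. Ankrd1 rose from 89.1 to 1020 RPKM and Xirp1 from 11.1 to 40.0 RPKM (adjusted p = 0.0193 and 0.0497 in the authors' deposited table). Acta1 overlaps Galnt2, a gene of the opposite strand listed at 7.07 RPKM in control and 12.9 in mutant, and its reads cannot be told apart without strand. Nppa overlaps Gm13054 on the other strand over 989 bases, with 48.4 RPKM in control and 3420 in mutant (adjusted p = 0.000216 in the authors' deposited table), so reads of these genes may not be separable either. Actc1, cardiac actin and the most abundant of the list, was listed at 2380 RPKM in control and 4530 in mutant, with an interval from -4.10 to 5.96 on the log2 scale that leaves its direction unknown. Dmd, which codes for dystrophin, had the largest fold below control, close to that of Myh6 (log2 -0.99 and -0.98 in the authors' deposited table), with 12.0 RPKM in control and 6.03 in mutant, without a call. The list's median was 0.26. Many genes of these lists had been seen in earlier results of these data, so their counts are no independent evidence of a direction.

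Relatives of the 10 genes, such as the other transgelins, calponins, smoothelins, myosins and MADS box factors, gave 0 calls among 16 in the authors' deposited table, and 2 of them, Mylk2 and Mef2b, both listed below 1 RPKM, had an unadjusted p under 0.05. Of all tested rows 3.51% were called and 12.6% had an unadjusted p under 0.05, so these counts do not set the relatives apart. Their median was -0.05.

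**Figure D4:**
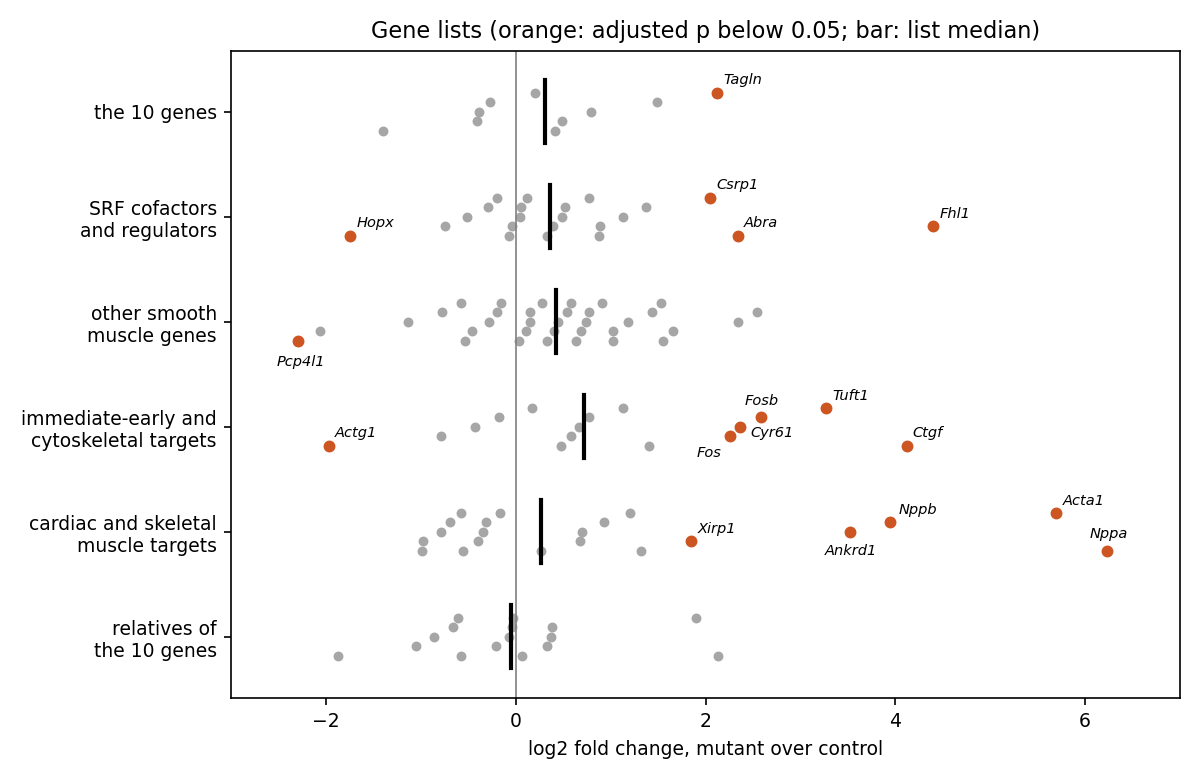
Log2 fold change of mutant over control for each tested gene of the 10 genes and of 5 lists, 1 point per gene, with called genes in orange and named and a bar at each median. The called genes of the cofactor, immediate-early and striated muscle lists lie far from medians between 0.26 and 0.72. This holds for called genes of any list, as no tested row with less than 3.03-fold in either direction was called. The other smooth muscle genes have 1 called gene, Pcp4l1.

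CArG boxes were looked for in the promoters of the listed genes too, of which 89 of 117, the 10 genes included, had an entry. Besides Srf and Cnn2, 11 genes had a promoter with a box, that begins 31 to 227 bases before the start. The 4 of them that were called are shown with 15 bases on each side, again with the box in capitals, because they place the motif beside a measured change: Acta1 (chr8:123894824-123894863, minus strand), Fhl1 (chrX:56779566-56779605, plus strand), Hopx (chr5:77115182-77115221, minus strand) and Actg1 (chr11:120348561-120348600, minus strand).
Acta1: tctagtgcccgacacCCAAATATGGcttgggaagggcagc
Fhl1: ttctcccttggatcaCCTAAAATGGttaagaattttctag
Hopx: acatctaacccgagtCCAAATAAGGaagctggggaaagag
Actg1: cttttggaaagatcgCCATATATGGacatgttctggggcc
Acta1 and Fhl1 rose and Hopx and Actg1 fell, so genes with a box near the start were called in both directions. Srf, with its pair of boxes, Cnn2, Actc1, Dmd, Egr2, Fhl2, Filip1l, Myl9 and Vcl had a box and no call. Vinculin (Vcl), which ties actin to cell adhesions, was listed at 22.1 RPKM in control and 23.9 in mutant, and Myl9, the regulatory light chain of smooth muscle, at 88.5 and 120 RPKM. A box was held by 41.7% of the 12 promoters of the immediate-early list, all of these belonging to Actg1 or Egr2. The share was 16.0% of the 25 of the cofactor list, 13.0% of the 23 of the striated muscle list and 8.11% of the 37 of the other smooth muscle list. Some genes have several promoters, so these are shares of promoters and not of genes.

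Over all genes with a promoter entry, 245 tested genes had a box and 14479 had none. Of the former, 10 were called higher and 5 lower in the authors' deposited table, 6.12% in all, beside 3.75% of the latter, and the medians of their log2 fold changes were 0.08 and 0.07. Leaving out the listed genes, 231 genes with a box remained, of which 4.76% were called. At a mean RPKM of 1 or more, 9.42% of 138 genes with a box and 4.76% of 7970 without one were called, and 7.20% of the 125 with a box outside the lists. These shares are descriptions, and no difference between them was tested.

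Markers of the other cells of the ventricle are given next, and their part in the values of the 10 genes and of the lists was not tested. For comparison, 3.51% of all tested rows were called and 12.6% had an unadjusted p under 0.05. At a mean RPKM of 1 or more these shares were 5.28% and 17.0%. Of 6 markers of activated fibroblasts all 6 were listed above control and 2 rose, Lox, an enzyme that crosslinks collagen, from 4.36 to 58.3 RPKM and Cthrc1, a secreted collagen-domain protein, from 3.08 to 24.5 RPKM. Their summed level was 224 RPKM in control and 1081 in mutant, of which Acta2, also in the smooth muscle list, made up the most. The 10 markers of pericytes, the mural cells of capillaries, gave 0 calls and 1 unadjusted p under 0.05 (Abcc9, lower), with a sum of 168 RPKM in control and 147 in mutant. The 10 general fibroblast markers gave 0 calls and 4 unadjusted p-values under 0.05, 3 higher and 1 lower, with sums of 677 and 854 RPKM. Of 7 macrophage markers all 7 were listed above control, and 3 had an unadjusted p under 0.05. Lyz2 alone of them passed the test and rose, and the sum of the 7 went from 65.8 to 197 RPKM. Of the 8 cardiomyocyte markers, none at 0, 6 were listed below control and 2 above (median log2 fold change -0.31), with 0 calls and 1 unadjusted p under 0.05. They summed to 9084 RPKM in control and 9768 in mutant, and without Actc1 the other 7 summed to 6704 RPKM in control and 5238 in mutant. The 8 endothelial markers gave 0 calls and no unadjusted p under 0.05 (171 and 164 RPKM), and the 4 atrial markers 0 calls and 1 such p (40.3 and 27.8 RPKM). Of 7 skeletal muscle markers, the factors Myod1, Myog and Myf6 were listed at 0 in both groups, Myf5 at 0 and 0.00314 RPKM and Pax7 at 0.00323 and 0.00124 RPKM. The 2 others, which the heart also expresses, were Acta1, which rose, and Ckm, listed at 468 and 355 RPKM, and the 7 summed to 484 RPKM in control and 1182 in mutant.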

How the data were processed

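RNA of ventricles was measured in 2 control and 2 mutant mice at postnatal day 14. The authors deposited 1 table with 1 RPKM value per group and row, and, for mutant against control, a fold (ratio), a log2 fold change and a p-value with and without adjustment, per the file headers. Tools named in the submitters' processing notes, without roles, are DESeq and Bowtie 0.12.9, and the build named there is mm9. The sources used here do not give the annotation, the counter, the use of strand or the handling of multiply mapped reads.

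Values per mouse were not analysed here, so the authors' test was the main test, replicates could not be left out and no model was fitted. RPKM ratios matched the deposited fold within 0.971% in rows of at least 1 RPKM in both groups, and a recomputed Benjamini-Hochberg adjustment over 24454 rows matched within 0.593%. Standard errors are the deposited log2 fold change over the normal score of its p-value. The 10 genes, the lists and the tests were chosen with earlier results of these data known. Of the lists, called genes, the largest differences (at a mean RPKM of 1 or more) and the most abundant gene were named, and further genes after their values were seen. Myl6 and the symbol Adgre1 were not matched. Sequences are RefSeq's, GRCm38.p6, and their coordinates were not mixed with mm9. Read estimates used GENCODE exonic lengths. Calculations used Python 3.11.15, pandas 2.3.3 and scipy 1.17.1, and their arithmetic was checked on simulated data with normal errors. That check cannot show whether a normal score holds for the authors' test. Alternatives were other thresholds, other rows for the adjustment, pseudocounts and centring.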

Additional observations from a re-analysis of the deposited data

How the results depend on the processing

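Pseudocounts of 0.1 and 1 RPKM were added to both groups alike, so they could change the size of a difference but not its direction. Centring used the median of rows with a mean of at least 1 RPKM (0.08 on the log2 scale). It could not reverse a direction either, as the smallest log2 fold change in size was 0.20 (Mustn1). The 10 genes kept their direction in 30 of 30 such values, an outcome fixed in advance, and these values carry no test of their own. The 10 genes kept their side of the threshold in 20 of 20 values adjusted over rows with a mean of at least 1 RPKM or over protein coding rows. Tagln was the 1 call at adjusted p-values of 0.1 and 0.01 too. The count for the other smooth muscle genes was not as stable: it went from 1 to 4 at a threshold of 0.1, and to 4 when p-values were adjusted over rows of at least 1 RPKM, by the addition of Pdlim3, Actn1 and Speg, since fewer rows were then adjusted for. Shares over all rows rose as well, from 3.51% to 4.92% of tested rows at a threshold of 0.1. With the adjustment over rows of at least 1 RPKM, 6.31% of those rows were called. At a threshold of 0.1 and with that adjustment, the other list counts stayed within 1.5 times of their values. The lists were not counted at a threshold of 0.01. Some of their called genes, such as Ankrd1 (adjusted p = 0.0193 in the authors' deposited table), lie above it. With 1 mismatch allowed in the CArG box, the same 2 of 7 promoters matched, as did 21.1% of all promoters. No symbol of the 10 genes was repeated, so the choice of row changed nothing. No paired analysis was possible because the table holds 1 value per group, and for the same reason leaving out replicates and the edgeR and DESeq2 fits were not run. Protein identities among relatives, planned too, were not run, as no protein sequences were used here. For the 10 genes the estimated counting error was smaller than the implied error, and for the listed genes the 2 were not compared.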

Other observations

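Outside the lists, 11 genes with a CArG box in a promoter were called, 8 higher and 3 lower, and some are named here after their values were seen. Asb5, a muscle protein that recruits ubiquitin ligases, rose from 2.34 to 16.2 RPKM and Stbd1, a glycogen-binding protein, from 4.32 to 19.0 RPKM. Pdgfc, a growth factor for fibroblasts and mural cells, rose from 0.0898 to 0.642 RPKM, and Mpeg1, a pore-forming protein of macrophages, from 0.658 to 2.42 RPKM. Itgb6, an integrin subunit, fell from 1.99 to 0.231 RPKM, a log2 difference of -3.11 in the authors' deposited table at adjusted p = 1.45e-05.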
